A study of Homo sapiens with 24 samples.

Results

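The data analysed here set 8-amino-adenosine (8AA) directly against 8-chloro-adenosine (8CA) in MV4-11 cells after 8 h, gene by gene, without the untreated libraries in the contrast. MV4-11 is an established acute myeloid leukemia (AML) line of monocytic type that carries a KMT2A fusion and an internal tandem duplication of FLT3, and the labels give its genotype as wild type. Libraries were chosen by their labels, 2 treated with 8AA and 2 treated with 8CA, each drug at 1 μM, which is 4 of the 24 RNA-seq libraries of the series. The series also holds untreated cells, a 24 h time point and a second AML line, KG-1a, with 2 libraries in each of 12 groups. Untreated MV4-11 libraries of 8 h are shown for reference, and the labels do not say whether these cells received a vehicle. Of the 23354 genes in the table, 12800 had enough reads in the MV4-11 libraries to be tested. Nothing in the labels says that the 2 libraries of a group came from separate cultures. The p-values measure only the spread within groups, estimated over the 12 MV4-11 libraries of 8 h and 24 h, and that spread may be technical. The dose given to the medium was equal. The amount of drug phosphorylated inside the cells is not part of these data.

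8CA and 8AA are adenosine analogs that carry a chlorine atom or an amino group at position 8 of the base. Cells take such nucleosides up and adenosine kinase phosphorylates them, after which the triphosphates can act in RNA synthesis and in reactions that use ATP. In FLT3-mutant leukemia the receptor signals without ligand through the RAS and ERK kinases, through AKT, which holds FOXO transcription factors out of the nucleus, and through STAT5. ERK output is read from transcripts such as ETV4, ETV5 and DUSP6, and STAT5 output from PIM1, CISH and IL2RA. ATF4 is the transcription factor of the integrated stress response and drives genes for amino acid synthesis, amino acid transport and the charging of tRNA. How the members of these groups stood under one analog relative to the other is what the comparison measures.

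The 4 libraries held 20079864 to 24181318 counts, and the replicates of each drug differed by more than sampling noise, so none was counted as a duplicate. All 8 MV4-11 markers (FLT3, HOXA9, HOXA10, MEIS1, CD33, LYZ, CSF1R and CD4) had reads, with a summed level of 4500 to 4750 CPM (counts scaled to a common library total) under 8CA and 4620 to 5010 CPM under 8AA. The T cell genes CD3D, CD3E and CD3G, the epithelial genes EPCAM and CDH1 and the erythroid genes HBA1 and HBA2 had 0 counts in all 4 libraries. Summed B cell markers reached 1.99 CPM and summed fibroblast markers 0.248 CPM at most, and the erythroid list reached 2.07 CPM in 8AA library B alone. In these bulk samples, fewer cells of a type and less RNA per cell cannot be told apart.

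By the quasi-likelihood test of edgeR, with p-values adjusted by Benjamini-Hochberg over all 12800 genes, 853 genes passed an adjusted p of 0.05, which is 6.66% of those tested, and 2692 (21%) had an unadjusted p under 0.05. With 8AA, 379 genes were higher (2.96%) and 474 were lower (3.7%). Both 8AA libraries lay above both 8CA libraries for 21.9% of genes and below both for 25.2%. Called genes had a median absolute log2 fold change of 0.279, 156 reached 0.5 and 26 reached 1, of which 19 were higher and 7 lower with 8AA. The 95% interval of the difference lay wholly within 0.5 log2 units of 0 for 9608 genes (75.1%), and 2901 genes that were not called had a wider or more distant interval, so for these a difference of that size was not excluded at this depth. The count rested on all 4 libraries: it was 427 without 8AA library A, 468 without 8AA library B, 379 without 8CA library A and 365 without 8CA library B, where the remaining library of that drug is assumed to vary like the other groups. The balance of directions depended on the scaling. Under upper-quartile scaling 497 of 842 called genes (59%) were higher with 8AA, against 44.4% under TMM scaling.

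**Figure D1:**
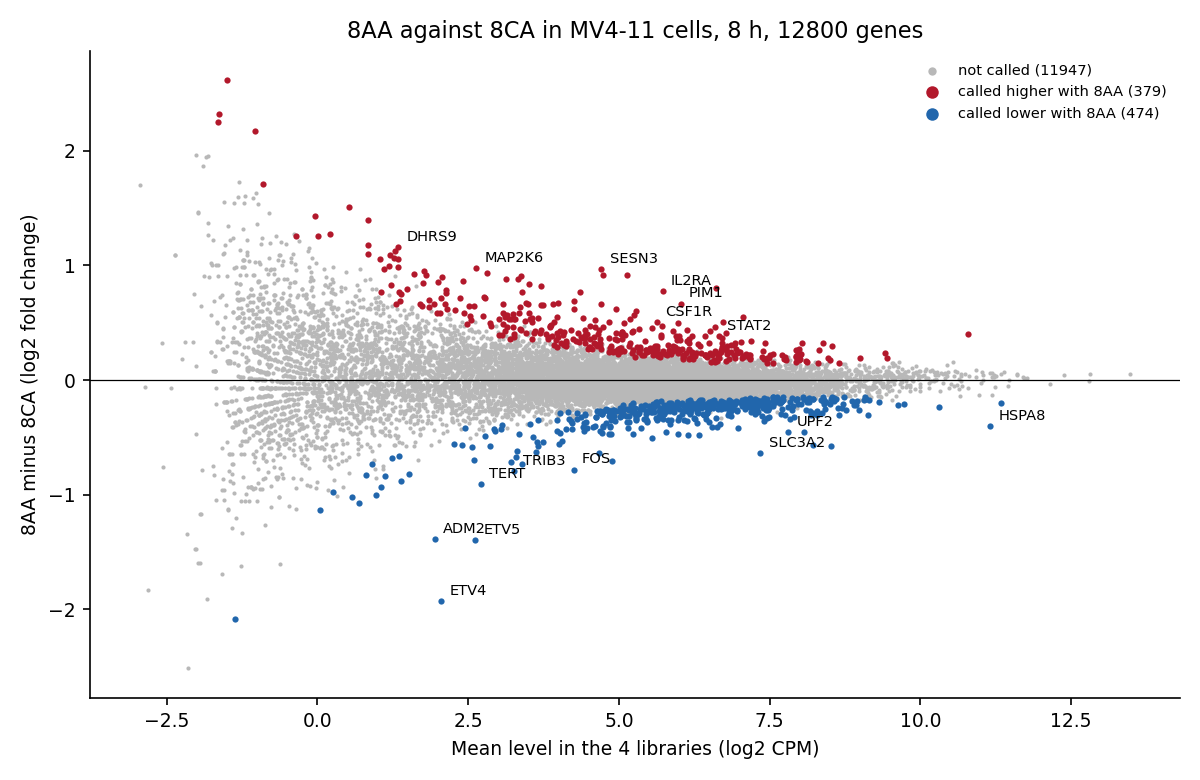
Each point is 1 tested gene, with the mean level over the 4 libraries (log2 CPM) on the horizontal axis and the log2 fold change of 8AA against 8CA on the vertical axis. Called genes are coloured by direction. ETV4 lies at -1.93, and most called genes lie within 0.5 log2 units of 0.

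Set against the untreated cells, most of the genes that separated the drugs were called under 8AA and lay closer to the untreated level under 8CA. The mean untreated level was nearer to 8CA than to 8AA on the log2 scale for 347 of the 379 genes higher with 8AA (91.6%) and for 425 of the 474 lower (89.7%). That share was not computed over all genes tested, so it is not known to be particular to the called genes. In the same fit 8AA changed 3742 genes (29.2%) and 8CA changed 1325 (10.4%) relative to untreated cells. With 8AA 13.6% of genes rose and 15.6% fell, with 8CA 4.58% rose and 5.77% fell, and both sets of counts share the untreated libraries. Of the 379 genes higher with 8AA, 275 (72.6%) were called higher than untreated under 8AA and not called under 8CA, and 54 were called higher under both. Their median log2 fold change from untreated was 0.445 for 8AA and 0.076 for 8CA. Of the 474 genes lower with 8AA, 268 (56.5%) were called lower than untreated under 8AA alone and 141 were called lower under both, with medians of -0.354 and -0.0889. A smaller group was set apart by 8CA: 28 of the 474 were called higher than untreated under 8CA and not called under 8AA, and 14 of the 379 were called lower under 8CA and not called under 8AA.

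The ETS factor genes ETV4 and ETV5, transcripts induced by ERK signalling, showed the largest decreases among the genes named by rank. ETV4 lay at 8.2 and 7.79 CPM in the 8CA libraries, at 1.67 and 2.48 CPM in the 8AA libraries and at 10.1 and 8.96 CPM in untreated cells. Under 8AA it was at 26.3% of the 8CA level, a log2 fold change of -1.93 ± 0.16 (SE, n = 2 libraries per drug, edgeR adjusted p = 6.08e-06). Paired values throughout are libraries A and B, and each ± value is the log2 fold change of 8AA against 8CA with its SE. ETV5 lay at 9.71 and 9.81 CPM under 8CA and at 3.78 and 3.63 CPM under 8AA (-1.40 ± 0.15, edgeR adjusted p = 8.79e-05). For both genes the 8AA libraries stood far below the 8CA libraries, which were close to the untreated ones at 11.2 and 11 CPM for ETV5. DUSP6, the phosphatase that ERK induces and that dephosphorylates ERK, lay at 32.7 and 30.3 CPM under 8CA and at 20.9 and 19.8 CPM under 8AA (-0.63 ± 0.098, edgeR adjusted p = 0.00125). SPRED2, an inhibitor of RAS signalling, gave -0.42 ± 0.069 (edgeR adjusted p = 0.00197). FOS, an immediate early gene, lay at 29.6 and 20.4 CPM under 8CA and 16 and 13.4 CPM under 8AA (edgeR adjusted p = 0.0163), and its 2 8CA libraries lay far apart. MYC, the growth-promoting transcription factor, fell from 601 and 642 CPM under 8CA to 495 and 509.7 CPM under 8AA (-0.31 ± 0.045, edgeR adjusted p = 0.000814). In a list of ERK output and feedback genes that was written after values had been seen, 7 of the 16 tested members were lower with 8AA, beside 3.7% of all genes. The list's median was -0.487 on the log2 scale beside -0.00511 for all genes tested. EGR1 lay at 4.26 and 3.57 CPM under 8CA and 2.51 and 2.35 CPM under 8AA and missed the threshold (-0.70, edgeR adjusted p = 0.0523), as did SPRY2 (-0.48, edgeR adjusted p = 0.237). ETV4, ETV5 and DUSP6 kept their call in each of the 14 alternatives that set no minimum fold, while FOS lost it in 5, among them the fits without 8AA library B and without 8CA library A. The other genes among the 10 ranked lowest and not described elsewhere were APBB1, LONRF3, SLC45A3 and SLC27A2, with log2 fold changes from -0.93 to -0.82 at levels below 5 CPM. In that order they lost their calls in 7, 6, 5 and 6 of those 14 alternatives, DESeq2 among them for each gene.

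**Figure D2:**
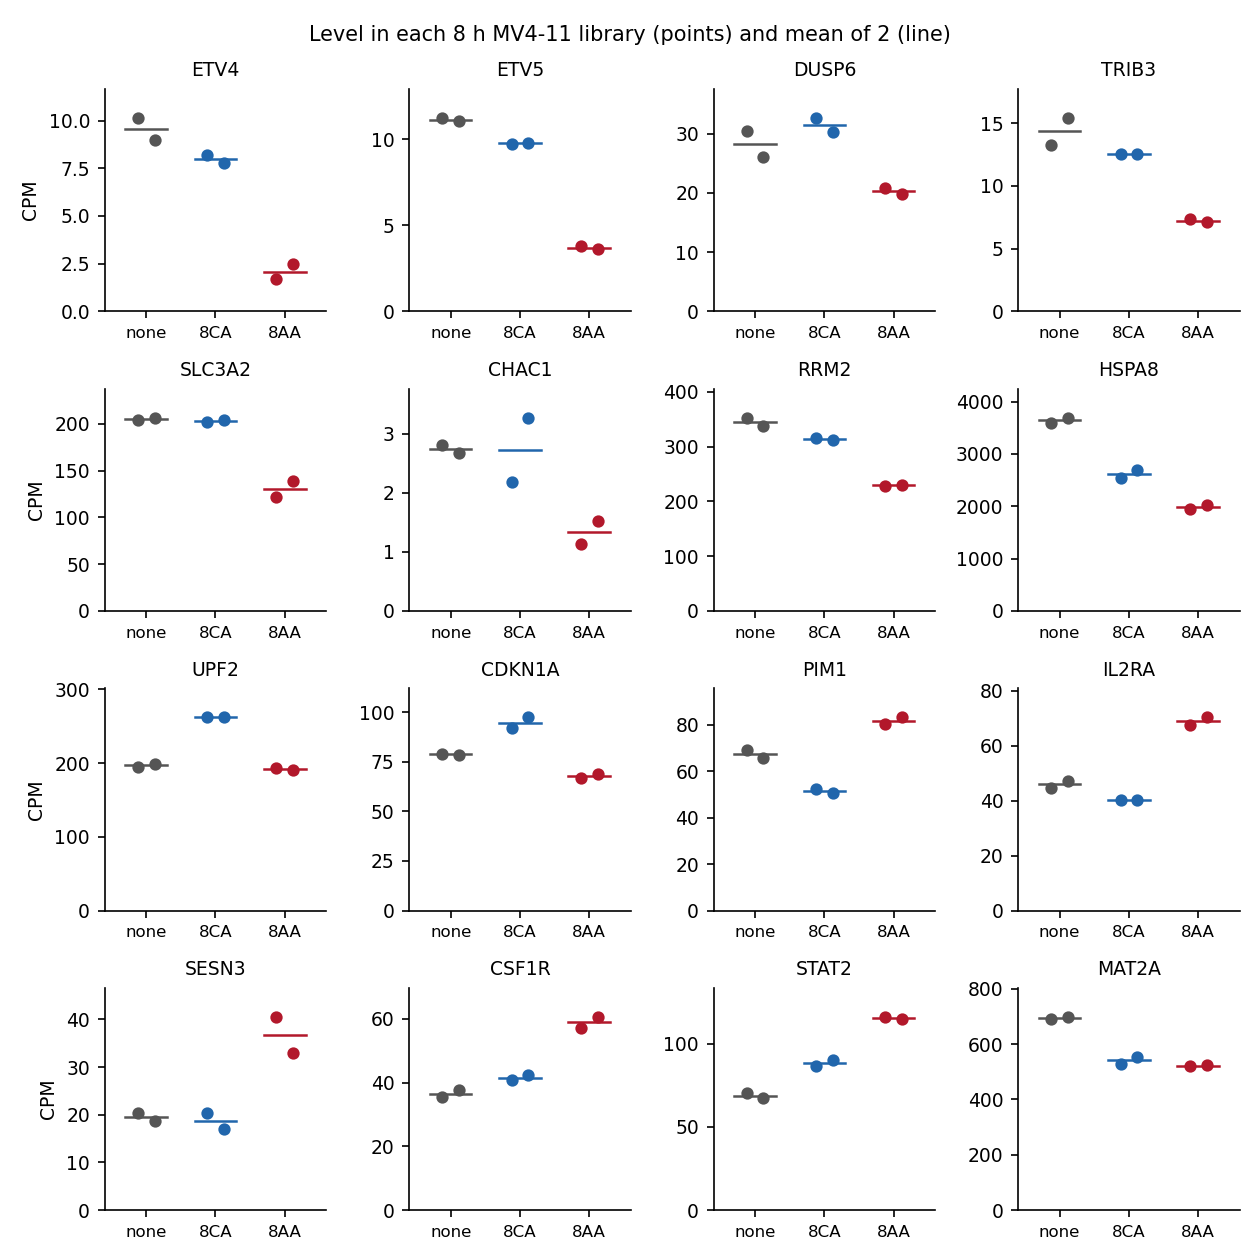
Each panel shows 1 gene, with TMM-scaled CPM from 0 on the vertical axis and the untreated, 8CA and 8AA libraries of MV4-11 at 8 h side by side; points are libraries and the line is the mean of 2. ETV4, ETV5 and SLC3A2 drop under 8AA alone, UPF2 rises under 8CA alone, and MAT2A drops to a like level under both.

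Of 19 FLT3 and STAT5 signalling targets tested, 4 were higher with 8AA and 4 were lower, beside 2.96% and 3.7% of all genes. PIM1, 1 of the 4 that were higher and a survival kinase gene induced by STAT5, lay at 52.2 and 50.8 CPM under 8CA and at 80.3 and 83.2 CPM under 8AA, with untreated libraries at 69.2 and 65.8 CPM between them. The difference was 0.67 ± 0.054 (edgeR adjusted p = 6.08e-06). Relative to untreated cells PIM1 was called lower with 8CA (-0.39) and higher with 8AA (0.28). CISH, a feedback inhibitor of cytokine receptors, had the same order at 48.3 and 48 CPM in untreated cells, 39 and 41 CPM under 8CA, and 53.6 and 56.1 CPM under 8AA (0.46 ± 0.060, edgeR adjusted p = 0.000327). IL2RA, the alpha chain of the interleukin-2 receptor, rose from 40.2 and 40.4 CPM under 8CA to 67.7 and 70.4 CPM under 8AA (0.78 ± 0.064, edgeR adjusted p = 6.08e-06). SOCS1, a suppressor of cytokine signalling, was higher with 8AA as well (0.83 ± 0.23, edgeR adjusted p = 0.0451), at levels below 4 CPM, and lost its call in 7 alternatives including each fit that left out 1 of the 4 libraries. In the list of 19 FLT3 and STAT5 signalling targets, which also holds ETV4, ETV5, DUSP6 and SPRED2, these 4 were lower and PIM1, CISH, IL2RA and SOCS1 were higher, so that the list's median of -0.0159 describes neither group of members and changed sign under upper-quartile scaling. FLT3 itself lay at 465 and 482 CPM under 8CA and 501 and 514 CPM under 8AA and missed the threshold (0.10, 95% interval 0.02 to 0.18, edgeR adjusted p = 0.155). The promoter of PIM1, the gene of this group with the smallest relative error, is shown from RefSeq on GRCh38.p14 at chr6:37169902-37170201 on the plus strand as a window of 300 bases around the transcription start. Capitals mark GC boxes, the only matches among the 8 motifs searched on both strands (the CCAAT box, the E-box CACGTG, the TATA box TATAAA, the AP-1 site TGACTCA, the core TGACGT of the cAMP element, the core TGATGCA bound by ATF4, the GC box GGGCGG and the ETS site CCGGAAG), and GGGCGG is present in 44.6% of all 27305 promoters of this length.
PIM1: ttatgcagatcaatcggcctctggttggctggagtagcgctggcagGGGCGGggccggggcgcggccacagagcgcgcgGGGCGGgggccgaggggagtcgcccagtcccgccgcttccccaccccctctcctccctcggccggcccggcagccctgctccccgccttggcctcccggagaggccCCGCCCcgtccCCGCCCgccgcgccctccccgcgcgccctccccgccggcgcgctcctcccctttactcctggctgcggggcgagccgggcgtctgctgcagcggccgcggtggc

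ATF4 and 10 of its 23 tested target genes were lower with 8AA, and SLC3A2, TRIB3 and CHAC1 among them were not called between 8CA and untreated cells. ATF4 is not a member of its own target list and was chosen after its values were seen. It lay at 356 and 365 CPM under 8CA, at 324 and 329.6 CPM in untreated cells and at 239.7 and 246 CPM under 8AA (-0.57 ± 0.048, edgeR adjusted p = 6.21e-06). Of the target list 19 members had a log2 fold change below 0 and 4 above, with a median of -0.264, and 3.7% of all genes were lower. Among amino acid transporters, SLC3A2, the heavy chain shared by several of them, fell from 202 and 203 CPM under 8CA to 122 and 139 CPM under 8AA (-0.63 ± 0.057, edgeR adjusted p = 9.35e-06). Its light chain partner SLC7A5 lay at 633 and 645 CPM in untreated cells, 434 and 459 CPM under 8CA and 288 and 312 CPM under 8AA, and was called lower than untreated under each drug (-0.52 for 8CA and -1.09 for 8AA). The drugs differed at SLC7A5 by -0.57 ± 0.050 (edgeR adjusted p = 6.21e-06). Of the biosynthetic enzymes, PSAT1 of serine synthesis fell from 146 and 145 to 109.8 and 108 CPM (edgeR adjusted p = 8.38e-05) and asparagine synthetase ASNS from 65.6 and 66.1 to 55 and 53.8 CPM (edgeR adjusted p = 0.00292). TRIB3, a pseudokinase that feeds back on ATF4, went from 12.5 and 12.5 to 7.37 and 7.10 CPM (-0.79 ± 0.12, edgeR adjusted p = 0.0011). CHAC1, which degrades glutathione, went from 2.17 and 3.27 to 1.13 and 1.53 CPM (-1.0 ± 0.24, edgeR adjusted p = 0.0195). ADM2, a peptide hormone gene outside the list and named by rank, went from 6.30 and 5.98 to 2.01 and 2.64 CPM (-1.38 ± 0.17, edgeR adjusted p = 0.00019). DDIT3, the pro-apoptotic factor CHOP, lay at 9.27 and 8.50 CPM under 8CA and 9.29 and 9.28 CPM under 8AA, with a difference of 0.06 and a 95% interval of -0.15 to 0.27. Over the 14 alternatives that set no minimum fold, 4 to 11 members of the target list were called lower. In each of these TRIB3 and SLC3A2 kept their call, while CHAC1 lost it in 4.

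Cytosolic aminoacyl-tRNA synthetases charge tRNA with amino acids. Of 20 tested, 7 were called lower with 8AA, beside 3.7% of all genes, and 18 had a negative log2 fold change, with a median of -0.116. YARS, for tyrosine, lay at 229 and 230.1 CPM under 8CA and 182 and 191 CPM under 8AA (-0.30 ± 0.041, edgeR adjusted p = 0.00056). GARS, for glycine, lay at 223 and 233 CPM under 8CA, and 188 and 195 CPM under 8AA (edgeR adjusted p = 0.00389). IARS, for isoleucine, lay at 445 and 464 CPM under 8CA, and 381 and 385 CPM under 8AA (-0.25 ± 0.043, edgeR adjusted p = 0.00265). TARS, for threonine, lay at 264 and 277 CPM under 8CA, and 234 and 234 CPM under 8AA (edgeR adjusted p = 0.00546). In each of these the 8AA libraries were below the 8CA libraries, which in turn were below the untreated ones. Over the 14 alternatives that set no minimum fold, 2 to 9 synthetases were called lower. ATF4 binds with C/EBP factors to a composite element whose core is TGATGCA. These letters, on either strand, were found in the promoters of 5 of the 12 tested synthetases that matched RefSeq and in 3 of the 4 called lower that matched, beside 1.26% of the promoters of the genes tested. Among ATF4 targets 2 of 19 promoters held the core, as did 1 of the 9 of those called lower. It was present in 1.8% of the 388 matched promoters of genes lower with 8AA and in 1.96% of the 306 of genes higher. Promoters of 3 genes that were lower with 8AA and hold the core are shown, CHAC1 at chr15:40953221-40953520 on the plus strand, IARS at chr9:92293648-92293947 on the minus strand and TARS at chr5:33440715-33441014 on the plus strand. Capitals mark the core (here read as TGCATCA on the printed strand), CCAAT boxes and any other of the 8 motifs, and a match in these windows is not evidence that a factor was bound.
CHAC1: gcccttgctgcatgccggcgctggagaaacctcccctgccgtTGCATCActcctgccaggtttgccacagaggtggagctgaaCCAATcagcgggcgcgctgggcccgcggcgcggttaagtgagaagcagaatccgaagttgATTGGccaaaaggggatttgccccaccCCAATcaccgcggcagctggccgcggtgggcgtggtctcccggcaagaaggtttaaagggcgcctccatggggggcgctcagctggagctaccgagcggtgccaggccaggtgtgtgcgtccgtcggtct
IARS: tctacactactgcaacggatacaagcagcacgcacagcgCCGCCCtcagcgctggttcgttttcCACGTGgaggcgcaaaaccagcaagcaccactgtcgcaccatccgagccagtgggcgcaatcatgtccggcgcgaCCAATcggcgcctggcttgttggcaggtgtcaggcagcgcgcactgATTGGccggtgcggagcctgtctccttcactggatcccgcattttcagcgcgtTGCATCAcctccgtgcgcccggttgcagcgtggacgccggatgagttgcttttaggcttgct
TARS: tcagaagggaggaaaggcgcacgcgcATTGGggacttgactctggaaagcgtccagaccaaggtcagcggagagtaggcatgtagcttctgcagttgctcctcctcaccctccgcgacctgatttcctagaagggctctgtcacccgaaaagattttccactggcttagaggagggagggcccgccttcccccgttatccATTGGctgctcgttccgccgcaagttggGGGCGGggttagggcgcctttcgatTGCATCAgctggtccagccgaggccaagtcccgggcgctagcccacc

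Of 31 genes of DNA replication tested, 17 were lower with 8AA, beside 3.7% of all genes. All 31 had a log2 fold change below 0, with a median of -0.184. Over the 14 alternatives that set no minimum fold, 1 to 19 members were called lower. The list's median log2 fold change from untreated was -0.0433 with 8CA and -0.245 with 8AA. With 8CA 7 members were called lower than untreated and 1 higher, beside 5.77% and 4.58% of all genes. With 8AA 20 were called lower and 0 higher, beside 15.6% and 13.6%. MCM10, which helps to activate the replicative helicase, lay at 104 and 111 CPM under 8CA and 83.9 and 77.7 CPM under 8AA (-0.41 ± 0.060, edgeR adjusted p = 0.000814). CDC45, a subunit of that helicase, lay at 73 and 72.7 CPM under 8CA and 56.2 and 62.4 CPM under 8AA (-0.30 ± 0.056, edgeR adjusted p = 0.00476). Of the origin recognition complex, ORC1 went from 88.7 and 97.9 to 75.4 and 76.2 CPM (edgeR adjusted p = 0.00739) and ORC6 from 44.3 and 44.4 to 36.7 and 35.9 CPM (edgeR adjusted p = 0.0132). The helicase subunit MCM6 went from 421 and 446 to 358 and 373 CPM (edgeR adjusted p = 0.00426) and E2F1, the factor that switches on these genes before S phase, from 53.9 and 57.4 to 46.5 and 45.9 CPM (edgeR adjusted p = 0.0123). The number called depended on the libraries, at 7 without either 8AA library, 10 without 8CA library A and 2 without 8CA library B. Among genes of the supply of deoxynucleotides, RRM2, the small subunit of ribonucleotide reductase, showed the clearest difference. It lay at 353 and 338 CPM in untreated cells, 317 and 313 CPM under 8CA and 229 and 230.0 CPM under 8AA (-0.46 ± 0.040, edgeR adjusted p = 6.21e-06). SAMHD1, which breaks deoxynucleotides down, was higher with 8AA, at 276 and 279.8 CPM against 224 and 238 CPM (0.27 ± 0.044, edgeR adjusted p = 0.00175). DCTD (-0.30) and thymidylate synthase TYMS (-0.17) were lower (edgeR adjusted p = 0.00406 and 0.0408), and the large reductase subunit RRM1 missed the threshold (-0.13, edgeR adjusted p = 0.0809). Of 30 genes of mitosis tested, none passed by edgeR or by DESeq2, 4 were higher and 1 was lower at an unadjusted p under 0.05, and their median was 0.0268. The edgeR test called 3 of them higher under upper-quartile scaling, in the fit of 24 libraries and with the library letter as a replicate block, and 2 without 8AA library B. Cell cycle promoters often carry CCAAT boxes. CCAAT was present in 16 of 27 matched promoters of the replication list and in 11 of 16 of those called lower, beside 36.9% of the promoters of genes tested. It was present in 36.6% of the 388 matched promoters of all genes lower with 8AA and in 39.5% of the 306 of genes higher. The promoters of RRM2 (chr2:10122489-10122788 on the plus strand) and CDC45 (chr22:19479670-19479969 on the plus strand) are shown because each holds several such boxes, in capitals with any other of the 8 motifs.
RRM2: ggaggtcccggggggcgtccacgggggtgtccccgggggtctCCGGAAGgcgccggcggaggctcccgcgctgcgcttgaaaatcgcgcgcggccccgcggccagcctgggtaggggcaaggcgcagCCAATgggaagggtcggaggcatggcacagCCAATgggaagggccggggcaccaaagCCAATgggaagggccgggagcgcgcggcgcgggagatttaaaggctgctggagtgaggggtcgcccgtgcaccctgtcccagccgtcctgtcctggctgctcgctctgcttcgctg
CDC45: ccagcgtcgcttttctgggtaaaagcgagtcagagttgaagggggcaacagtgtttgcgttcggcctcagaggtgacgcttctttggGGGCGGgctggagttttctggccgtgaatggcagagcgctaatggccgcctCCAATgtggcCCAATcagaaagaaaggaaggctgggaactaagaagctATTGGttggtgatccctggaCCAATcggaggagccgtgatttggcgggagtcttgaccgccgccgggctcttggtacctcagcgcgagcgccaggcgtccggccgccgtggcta

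Many ribosome biogenesis genes are targets of MYC. Of 32 tested, 14 were called lower with 8AA than with 8CA, beside 3.7% of all genes. All 32 had a log2 fold change below 0, with a median of -0.18. Relative to untreated cells 31 were called lower with 8AA and 20 with 8CA, beside 15.6% and 5.77% of all genes. RRP12, a processing factor of pre-ribosomes, lay at 118 and 120.5 CPM in untreated cells, 102 and 101 CPM under 8CA and 79.2 and 78.6 CPM under 8AA (-0.36 ± 0.052, edgeR adjusted p = 0.000699). MYBBP1A, a nucleolar protein that acts on RNA polymerase I, lay at 233 and 225 CPM in untreated cells, 198 and 202 CPM under 8CA, and 161 and 158 CPM under 8AA (-0.32 ± 0.042, edgeR adjusted p = 0.000301). The 3 groups did not overlap in either gene. NIP7, of 60S maturation, differed by -0.30 (edgeR adjusted p = 0.00292) and the helicase gene DDX10 by -0.28 (edgeR adjusted p = 0.00939). Over the 14 alternatives that set no minimum fold, 2 to 21 members of the list were called lower. Of 19 general MYC targets, 6 were called lower with 8AA, beside 3.7% of all genes, with a median of -0.119. The count was 2 to 9 over those alternatives. TERT, the telomerase catalytic subunit and a member of that list, went from 8.02 and 9.76 to 4.72 and 4.70 CPM (-0.91 ± 0.17, edgeR adjusted p = 0.00397). SRM, spermidine synthase, went from 178 and 192 to 147 and 166 CPM (-0.24, edgeR adjusted p = 0.0315). Of 82 genes in the list of cytosolic ribosomal proteins 1, RPL7L1, was called lower, and the list's median was 0.0436. MYC binds the E-box CACGTG. These letters were present in 18.8% of the 388 matched promoters of genes lower with 8AA, in 7.19% of the 306 of genes higher with 8AA and in 10.4% of the 10058 of genes tested. Within the ribosome biogenesis list 10 of 28 matched promoters held it, and 3 of the 12 of called members did. The promoters of SRM (chr1:11059969-11060268 on the minus strand) and MYBBP1A (chr17:4555335-4555634 on the minus strand) are shown with the E-box and any other of the 8 motifs in capitals.
SRM: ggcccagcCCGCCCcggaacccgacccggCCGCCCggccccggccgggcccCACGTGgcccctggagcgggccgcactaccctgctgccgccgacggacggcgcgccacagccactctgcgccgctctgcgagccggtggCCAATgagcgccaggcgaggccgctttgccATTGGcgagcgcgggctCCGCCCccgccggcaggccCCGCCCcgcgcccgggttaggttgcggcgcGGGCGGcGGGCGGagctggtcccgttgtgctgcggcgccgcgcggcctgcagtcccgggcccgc
MYBBP1A: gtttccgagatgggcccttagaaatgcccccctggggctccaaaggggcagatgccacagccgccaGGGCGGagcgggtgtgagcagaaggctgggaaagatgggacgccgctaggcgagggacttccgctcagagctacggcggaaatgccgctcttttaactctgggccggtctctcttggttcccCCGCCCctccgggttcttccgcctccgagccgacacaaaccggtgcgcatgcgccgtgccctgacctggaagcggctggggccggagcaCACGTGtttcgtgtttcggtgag

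Chaperones of the cytosol and the unfolded protein response of the endoplasmic reticulum form separate lists. Of 25 heat shock proteins and cytosolic or mitochondrial chaperones tested, 14 were lower with 8AA than with 8CA, beside 3.7% of all genes, with a median of -0.163. Against untreated cells 23 were called lower with 8AA and 19 with 8CA, beside 15.6% and 5.77% of all genes. HSPA8, the constitutive HSP70, lay at 3587 and 3693 CPM in untreated cells, 2548 and 2690.1 CPM under 8CA and 1941 and 2028 CPM under 8AA (-0.40 ± 0.045, edgeR adjusted p = 0.00011). HSPH1, its exchange factor, differed by -0.26 ± 0.040 (edgeR adjusted p = 0.00112) and the HSP90 co-chaperone FKBP4 by -0.31 ± 0.048 (edgeR adjusted p = 0.00134). The inducible HSP70 gene HSPA1A lay at 30.2 and 30 CPM under 8CA and 30.7 and 29.6 CPM under 8AA, down from 59 and 52.1 CPM in untreated cells, and gave a drug difference of 0.00 with a 95% interval of -0.18 to 0.19; its near-identical copy HSPA1B can share its reads. Over the 14 alternatives that set no minimum fold, 4 to 17 members of this list were called lower. In the unfolded protein response list, 3 of 19 members were higher with 8AA, beside 2.96% of all genes, and the median was 0.112. Relative to untreated cells 16 of the 19 were called lower with 8CA and 12 with 8AA, beside 5.77% and 15.6% of all genes. HSPA5, the main chaperone of the endoplasmic reticulum, lay at 1072 and 1082 CPM in untreated cells, 613 and 638 CPM under 8CA and 725 and 749 CPM under 8AA (0.24 ± 0.040, edgeR adjusted p = 0.00261). It was below untreated with either drug and lowest with 8CA. SYVN1, a ubiquitin ligase of the endoplasmic reticulum, and HYOU1, a chaperone there, were higher with 8AA by 0.25 and 0.15 (edgeR adjusted p = 0.0265 and 0.0484), and 1 or 2 of the 3 stayed called when 1 library was left out.

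Nonsense-mediated mRNA decay removes transcripts with early stop codons, and several of its factors are encoded by transcripts that it degrades itself. Of 10 factors tested, 5 were lower with 8AA than with 8CA, beside 3.7% of all genes. The count was 3 to 6 over the 14 alternatives that set no minimum fold. Relative to untreated cells 4 were called higher with 8CA and 1 with 8AA, beside 4.58% and 13.6% of all genes. UPF2 lay at 195 and 199 CPM in untreated cells, 262 and 262 CPM under 8CA and 193 and 190.1 CPM under 8AA (-0.45 ± 0.039, edgeR adjusted p = 6.21e-06). UPF2 was called higher than untreated with 8CA (0.41) and was not called with 8AA (-0.04). SMG9, which binds the kinase of the pathway, had the same arrangement at 60.5 and 61.7 CPM in untreated cells, 75.5 and 82.8 CPM under 8CA, and 59.7 and 63.8 CPM under 8AA (-0.36 ± 0.056, edgeR adjusted p = 0.00134). UPF1, the central helicase, lay at 300.0 and 316 CPM in untreated cells, 352 and 380.4 CPM under 8CA, and 291 and 309 CPM under 8AA (edgeR adjusted p = 0.00448), and UPF3B at 30 and 26.9 CPM in untreated cells, 41.9 and 37.7 CPM under 8CA, and 32.1 and 31.9 CPM under 8AA (edgeR adjusted p = 0.0146). SMG5, the last of the 5 called, was at the untreated level under 8CA and below it under 8AA (143 and 142 CPM in untreated cells, 142 and 142 CPM under 8CA, and 119.6 and 123 CPM under 8AA). Of 26 p53 targets 5 were lower with 8AA than with 8CA, beside 3.7% of all genes. The count was 2 without 8CA library A, 3 under upper-quartile scaling or with library size only and 8 with the replicate block. Relative to untreated cells 12 were called higher and 1 lower with 8CA, and 7 higher and 6 lower with 8AA. Over all genes these shares were 4.58% and 5.77% with 8CA, and 13.6% and 15.6% with 8AA. CDKN1A, the cell cycle inhibitor p21, lay at 79.1 and 78.5 CPM in untreated cells, 91.9 and 97.4 CPM under 8CA and 66.8 and 68.8 CPM under 8AA (-0.48 ± 0.057, edgeR adjusted p = 0.000137). The kinase gene PLK2 lay at 12 and 13.3 CPM in untreated cells, 14.9 and 15.1 CPM under 8CA, and 9.43 and 11.2 CPM under 8AA (-0.54 ± 0.099, edgeR adjusted p = 0.00412). MDM2 and PPM1D, which restrain p53, were lower by smaller amounts (-0.29 and -0.25, edgeR adjusted p = 0.0471 and 0.041) and lost their calls in 9 and 8 of those 14 alternatives. JUN, a subunit of AP-1, rose from 2.96 and 3.79 CPM in untreated cells to 7.54 and 7.69 CPM under 8CA and lay at 4.91 and 4.50 CPM under 8AA (-0.70 ± 0.16, edgeR adjusted p = 0.0172).

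Genes higher with 8AA included markers of monocytic maturation and transcripts induced by FOXO factors. By rank, the leading genes were at low levels. DHRS9, a retinol dehydrogenase, went from 1.51 and 1.76 CPM under 8CA to 4.03 and 3.30 CPM under 8AA (1.16 ± 0.20, edgeR adjusted p = 0.00243), the transporter gene ABCA6 from 1.46 and 1.71 to 3.44 and 3.47 CPM (edgeR adjusted p = 0.0157) and the lysosomal peptide transporter gene SLC15A3 from 1.86 and 1.51 to 3.68 and 3.38 CPM (edgeR adjusted p = 0.0037). MAP2K6, a kinase upstream of p38, went from 4.34 and 4.32 to 8.70 and 8.42 CPM (0.98 ± 0.14, edgeR adjusted p = 0.000827). The other genes of the 10 ranked highest were ENHO, CHST12, GAS6-AS2, PATL2, REPS2 and the cell cycle inhibitor CDKN1C, with log2 fold changes from 0.97 to 1.09. In that order they lost their calls in 4, 3, 6, 5, 5 and 7 of the 14 alternatives that set no minimum fold. ABCA6 lost its call in 5, and for each of these genes DESeq2 was among them. Of 17 myeloid granule and maturation genes, 4 were higher with 8AA, beside 2.96% of all genes. Of these calls 1 was left without 8AA library B and 2 without either 8CA library. CSF1R, the receptor for the macrophage growth factor M-CSF, lay at 35.5 and 37.6 CPM in untreated cells, 40.7 and 42.3 CPM under 8CA and 57.2 and 60.6 CPM under 8AA (0.51 ± 0.059, edgeR adjusted p = 0.000131). The calprotectin subunit S100A8 went from 9.80 and 9.76 to 13 and 14.7 CPM (0.51 ± 0.096, edgeR adjusted p = 0.00489), and CSF3R and CTSG differed by 0.22 and 0.20, CSF3R losing its call whenever 1 of the 4 libraries was left out. CIITA, the master regulator of MHC class II genes, went from 7.94 and 8.30 to 12 and 13.2 CPM (0.64 ± 0.13, edgeR adjusted p = 0.00656), and CD74, the invariant chain, from 233 and 246 to 267 and 272 CPM (edgeR adjusted p = 0.0465). They were the 2 called of 9 MHC class II genes, whose median was 0.313, and leaving out 1 library left 1 or neither of them called. STAT2, of interferon signalling, lay at 70.2 and 67.3 CPM in untreated cells, 86.7 and 90.4 CPM under 8CA, and 116 and 115 CPM under 8AA (0.38 ± 0.048, edgeR adjusted p = 0.000264) and was the only one of 17 interferon-stimulated genes called, although the list's median was 0.265.

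The FOXO target list and the lysosome list were also written after values had been seen. Among 18 FOXO targets 4 were higher with 8AA, namely SESN3, BCL6, IL7R and TXNIP, beside 2.96% of all genes. The list's median was 0.149. At an unadjusted p under 0.05 by edgeR, 6 members were higher and 3 were lower. SESN3, an inhibitor of mTORC1, lay at 20.5 and 18.6 CPM in untreated cells, 20.4 and 17 CPM under 8CA and 40.5 and 32.9 CPM under 8AA (0.97 ± 0.13, edgeR adjusted p = 0.000313). IL7R, the interleukin-7 receptor, lay at 26.7 and 27.3 CPM in untreated cells, 26.6 and 23.4 CPM under 8CA, and 38.2 and 38.5 CPM under 8AA (0.62 ± 0.071, edgeR adjusted p = 0.000124). In these 2 genes the 8CA libraries lay at the untreated level and the 8AA libraries above both. TXNIP, which limits glucose uptake, rose with each drug, from 168 and 159 CPM to 223 and 243 CPM under 8CA and 287 and 298 CPM under 8AA (0.33 ± 0.050, edgeR adjusted p = 0.00111). BMF, a BH3-only gene of the BCL2 family, had the same stepwise order at 28.2 and 27.6 CPM in untreated cells, 42.8 and 47.7 CPM under 8CA, and 59.9 and 58.8 CPM under 8AA (0.39 ± 0.063, edgeR adjusted p = 0.0016). Of 25 lysosome genes 4 were higher with 8AA, beside 2.96% of all genes, and 1 by DESeq2. They include DNASE2, NPC1 and CTSS, of which CTSS, the protease cathepsin S, went from 39.7 and 37.2 to 44.5 and 44.9 CPM (edgeR adjusted p = 0.0423). DNASE2 and CTSS lost their calls in each fit that left out 1 library, and NPC1 in each but the fit without 8AA library A. SESN3, IL7R, TXNIP, BMF, CSF1R, STAT2, MAP2K6, DHRS9 and SLC15A3 kept their calls in each of the 14 alternatives that set no minimum fold.

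Of the genes on which the study centred, MAT2A was not called between the drugs at 8 h, and METTL16 was lower with 8AA. MAT2A, which makes S-adenosylmethionine, lay at 689 and 698 CPM in untreated cells, 528 and 553 CPM under 8CA and 520.2 and 523 CPM under 8AA. It was called lower than untreated with each drug (-0.36 for 8CA and -0.41 for 8AA), and the difference between drugs was -0.05 with a 95% interval of -0.14 to 0.03 (edgeR adjusted p = 0.522). METTL16, the methyltransferase that acts on the MAT2A transcript, lay at 91.9 and 94.4 CPM in untreated cells, 90 and 97.9 CPM under 8CA and 75.2 and 77 CPM under 8AA (-0.30 ± 0.053, edgeR adjusted p = 0.00281). Of the 14 alternatives that set no minimum fold, the fit of the 4 drug libraries alone was the 1 in which it lost its call. For the m6A writers METTL3 and METTL14 the 95% intervals of the difference were -0.18 to 0.03 and -0.20 to 0.08, and for the cleavage factor subunits NUDT21, CPSF6 and CPSF7 they were -0.20 to 0.13, -0.24 to 0.02 and -0.20 to -0.02. None of the 20 cleavage and polyadenylation factors was called by edgeR or by DESeq2, and 2 were lower at an unadjusted p under 0.05. BCL2, the target of venetoclax, gave -0.03 with an interval of -0.13 to 0.06. In the cysteine and methionine metabolism list 3 of 33 members were lower with 8AA, beside 3.7% of all genes. The list's median was -0.0497, and at an unadjusted p under 0.05 by edgeR 9 were lower and 1 was higher. CBS, which takes homocysteine towards cysteine, went from 19.4 and 19.3 CPM under 8CA to 13.2 and 13 CPM under 8AA (-0.56 ± 0.086, edgeR adjusted p = 0.00116), and GCLM, of glutathione synthesis, from 37.2 and 35.5 to 30.4 and 28.1 CPM (edgeR adjusted p = 0.00756). SRM was the third. The level of adenosine kinase ADK lay at 99.7 and 102 CPM under 8CA and 106 and 103 CPM under 8AA, a difference of 0.06 with an interval of -0.05 to 0.16. Of 21 genes that transport, phosphorylate or break down adenosine, the adenosine deaminase gene ADA was higher with 8AA (0.23, edgeR adjusted p = 0.0494), and NT5C and PNP were lower (-0.32 and -0.20, edgeR adjusted p = 0.0144 and 0.023). Of 14 genes of de novo purine synthesis PFAS, PAICS and GART were lower with 8AA (-0.25, -0.18 and -0.17), beside 3.7% of all genes. They lost their calls in 1, 5 and 6 of those 14 alternatives.

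Of 28 cholesterol and fatty acid synthesis genes tested, 15 were called lower than untreated with 8CA and 18 with 8AA, beside 5.77% and 15.6% of all genes. Of the same 28, 5 were lower with 8AA than with 8CA, beside 3.7% of all genes, and 2 without 8AA library A or without 8CA library B. Of the 28, 26 had a negative log2 fold change, with a median of -0.104. The fatty acid desaturase gene FADS1 lay at 282 and 281 CPM in untreated cells, 255 and 257 CPM under 8CA, and 212 and 215 CPM under 8AA (-0.26 ± 0.040, edgeR adjusted p = 0.00111), and fatty acid synthase FASN at 1006 and 1068 CPM in untreated cells, 836 and 862 CPM under 8CA, and 708 and 749.5 CPM under 8AA (edgeR adjusted p = 0.0075). Other genes with a role in leukemia or inflammation were called as well. VEGFA (-0.40), TNF (-0.58), TNFAIP3, a brake on NF-κB (-0.47), and the glucose transporter gene SLC2A3 (-0.57) were lower with 8AA, and BCL3 (0.75) and NFKBIA (0.26) were higher. In the list of 18 NF-κB genes 3 were higher and 2 lower, beside 2.96% and 3.7% of all genes. BCL3 and NFKBIA each lost the call in 7 of the 14 alternatives that set no minimum fold, DESeq2 among them. TNF lost it in 4 and TNFAIP3 in 3. MEIS1 was the only one of 14 HOXA and KMT2A-fusion genes called (0.16, edgeR adjusted p = 0.0429). It lost its call in 8 of those 14 alternatives, DESeq2 among them, with log2 fold changes from 0.159 to 0.180.

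**Figure D3:**
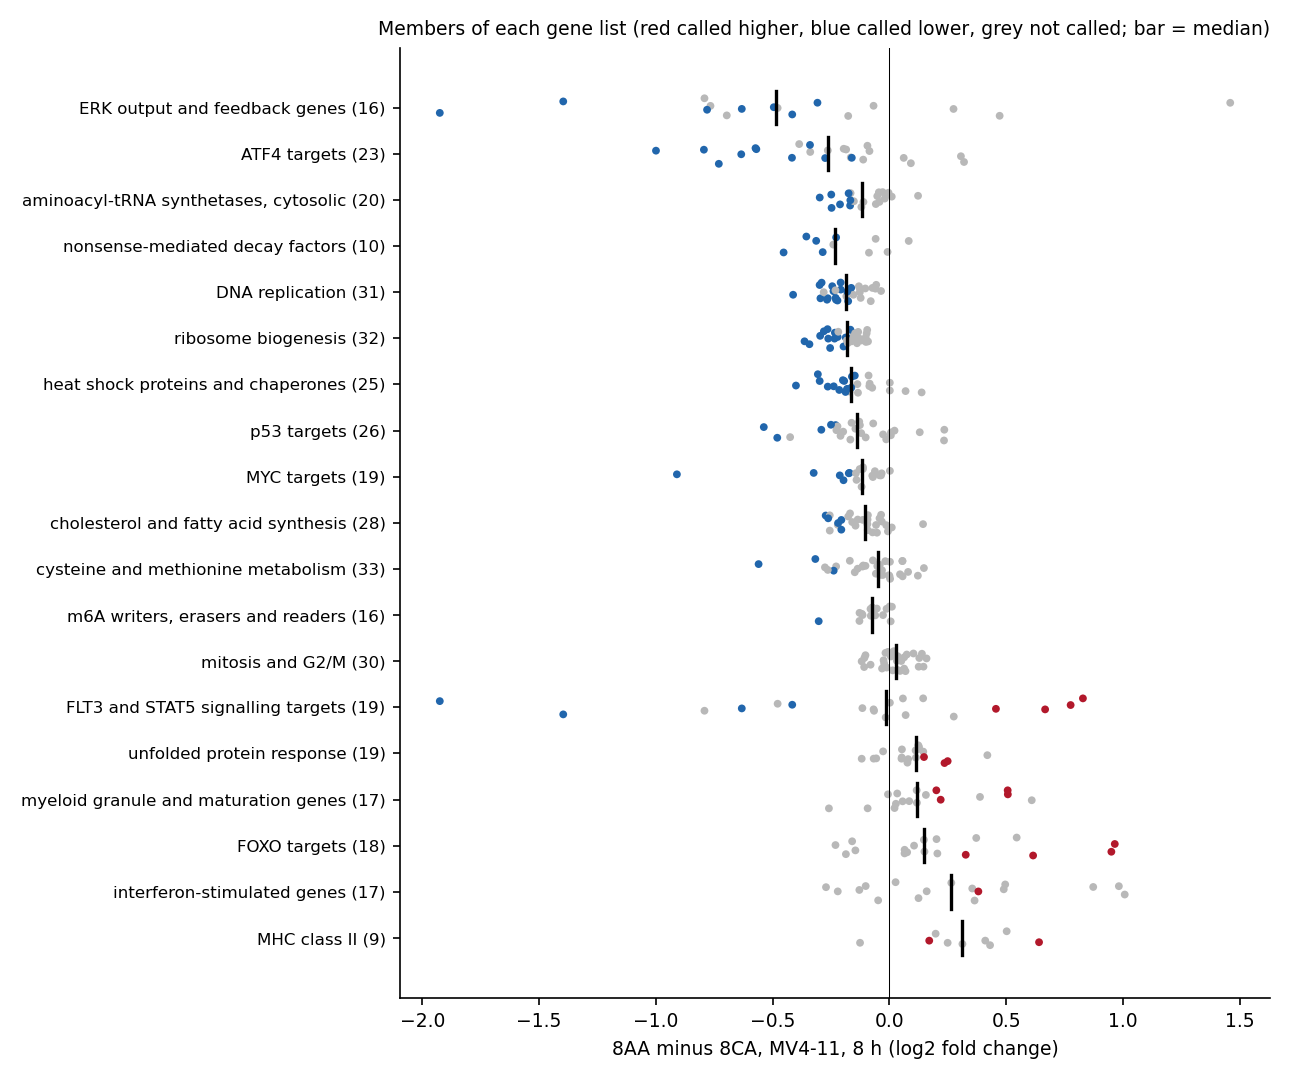
Each row is 1 gene list, each point the log2 fold change of 8AA against 8CA for 1 tested member, red where called higher, blue where called lower and grey where not called, and the bar is the list's median. DNA replication and ribosome biogenesis lie wholly below 0 with medians of -0.184 and -0.18, and the FLT3 and STAT5 list splits into members on either side.

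In several large housekeeping groups the share called was below the 6.66% of all genes. None of 75 respiratory chain and ATP synthase subunits was called by edgeR or by DESeq2, with 2 higher at an unadjusted p under 0.05 and a median of 0.0114. None of 29 clustered histone genes was called by either tool under the scalings used, although edgeR called 1 higher under each of the 3 other scalings, and 1 was higher and 1 lower at an unadjusted p under 0.05. Of 76 mitochondrial ribosomal proteins 1 was called lower (MRPL17, -0.21), and of 38 proteasome subunits 2 (PSMD11 and PSMD12), a count that was 10 with the replicate block. Of 18 SR splicing factors and CLK kinases 1 (SRPK1, -0.22) was lower, and of 23 genes of transcription elongation control 2 (8.7%), among them CCNT1 (-0.23). Of 13 snoRNA host transcripts SNHG1 and SNHG16 were lower (15.4%). In the proteasome, elongation and snoRNA host lists 1 or none stayed called when 1 library was left out. Among 199 zinc finger genes of chromosome 19, ZNF585A was higher and ZNF587B lower. Of 240 antisense RNAs, 6 were higher and 1 lower (1 to 3 higher when 1 library was left out and none in the fit of the 4 drug libraries), led by GAS6-AS2 (1.05) and by VPS9D1-AS1 (-0.41), and of 104 long intergenic RNAs LINC00324 and LINC00476 were higher, neither of them without 8CA library B (log2 fold changes 1.10 and 0.47). Since strand use in the counting is not given in the sources used here, reads of an antisense RNA and of its partner gene cannot be told apart. The share lower with 8AA was 1.2% between 1 and 3 log2 CPM and 8.06% above 7 log2 CPM, where the share higher was 3.17% and 2.95%. By genomic span, 2.22% of genes under 5 kb were higher and 1.85% lower, against 3.05% and 4.56% between 20 and 50 kb and 4.71% and 2.69% between 200 and 500 kb, and of 114 longer genes 2 were called, both higher.

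**Figure D4:**
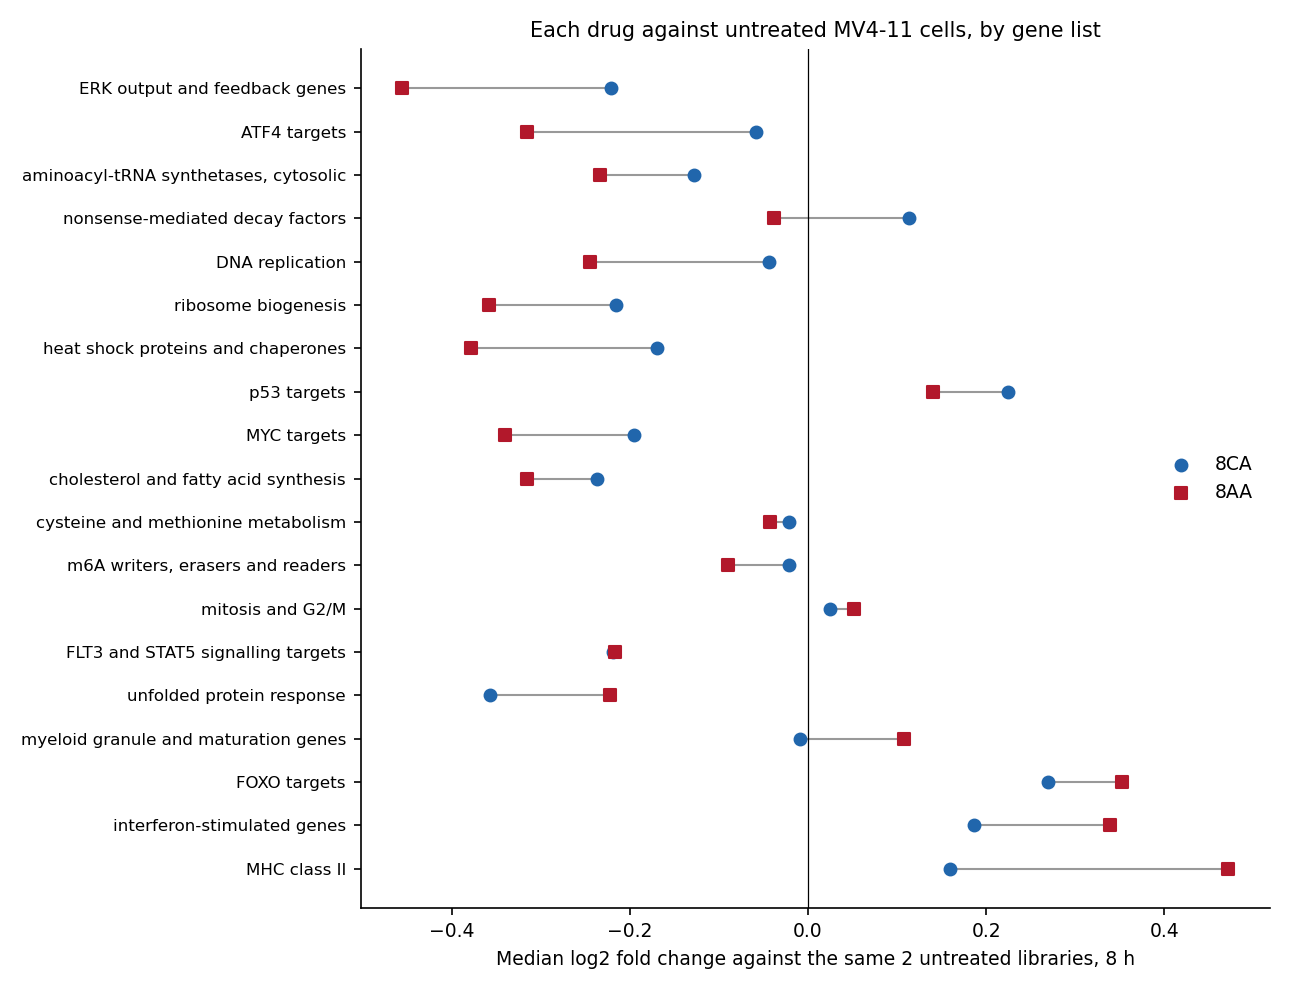
For the same lists, the horizontal position is the median log2 fold change from untreated cells, drawn once for 8CA and once for 8AA, which share the untreated libraries. Ribosome biogenesis (-0.216 and -0.358) and heat shock genes (-0.17 and -0.378) lie below 0 with each drug, DNA replication departs from 0 mainly with 8AA (-0.245), and nonsense-mediated decay factors stand at 0.113 with 8CA.

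At 24 h in the same line the contrast was larger and kept only some of its 8 h members. With separate libraries, 2716 genes were called between the drugs (21.2%), 1503 higher (11.7%) and 1213 lower (9.48%) with 8AA. Of the 379 genes higher at 8 h, 194 (51.2%) were higher at 24 h and 5 were lower. Of the 474 genes lower at 8 h, 140 (29.5%) were lower at 24 h and 58 (12.2%) were higher. Over the 10961 genes whose mean in the 4 libraries of 8 h reached 2 CPM, the log2 fold changes at the 2 times gave a Pearson r of 0.347 and a Spearman rho of 0.256, as a description across genes, which are not independent replicates. A test of the difference between the 2 drug contrasts called 979 genes (7.65%), 5.12% with a higher and 2.53% with a lower value at 24 h. The count was 547 without 8 h 8AA library A, 460 without 8 h 8CA library B, 375 without 24 h 8CA library A and 429 without 24 h 8AA library B. Of the ATF4 targets 22 of 23 were called lower at 24 h against 10 at 8 h, with a median of -0.965 and 15 members whose difference between times was called. CHAC1 (-2.34), TRIB3 (-1.63), ADM2 (-2.48), ATF4 (-0.92) and CBS (-1.21) were lower at 24 h. Of the myeloid and MHC class II lists 12 of 17 and 8 of 9 were called higher at 24 h, against 4 and 2 at 8 h, and IL7R (1.51), CSF1R (0.53), IL2RA (0.67) and PIM1 (0.47) were higher. Of the nonsense-mediated decay factors 8 of 10 were called lower at 24 h. The FOXO targets were split at 24 h, with 4 called higher, 4 called lower and a median of -0.135, and TXNIP was lower (-0.21). ETV4 and ETV5 stayed lower at -0.73 and -0.74, and DUSP6 (-0.12) was not called. In other groups calls at 24 h were mostly in the opposite direction. Of the replication genes 12 were higher and 1 lower at 24 h, and the difference between times was called for 18 of 31, each towards higher values. Among chaperones 13 were higher and 1 lower, with 17 of 25 called for the difference. Of the cholesterol and fatty acid synthesis genes 26 of 28 were higher at 24 h, with a median of 0.61 and 23 called for the difference, among them FADS1 (0.60) and FASN (0.50).

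In KG-1a, a CD34-positive AML line, the same contrast at 8 h called 3850 of 14055 genes (27.4%), 1737 higher (12.4%) and 2113 lower (15%) with 8AA. It came from 1 model over the 24 libraries. Of the 474 genes lower with 8AA in MV4-11, 290 (61.2%) were lower in KG-1a and 18 were higher. Of 378 higher genes tested in both, 135 (35.7%) were higher in KG-1a and 21 were lower. The log2 fold changes gave r = 0.18 and rho = 0.343 over 10961 genes, again as a description. The test of the difference between lines called 1169 genes (8.32%), 2.75% with a higher and 5.57% with a lower value in KG-1a. The count was 719, 658, 723 and 650 without KG-1a 8AA library A, 8AA library B, 8CA library A and 8CA library B. Of the ATF4 targets 21 of 23 were called lower in KG-1a, with a median of -1.02, and of the ribosome biogenesis genes 28 of 32, with a median of -0.471. SLC7A5 (-1.71), ATF4 (-1.43), TRIB3 (-0.93) and MYC (-0.96) were lower in KG-1a. Of the ERK output list 8 of 16 were lower in KG-1a, including DUSP6 (-2.11), ETV5 (-2.36) and SPRED2 (-1.23), while ETV4 was not called there (-1.73). MAP2K6 (1.00), SESN3 (0.84), STAT2 (0.72) and BMF (0.53) were higher in both. PIM1, of the STAT5 group, was higher with 8AA in MV4-11 and lower in KG-1a (-0.52), and CISH was not called in KG-1a (0.01). Of the replication genes 8 were higher and 4 lower in KG-1a, and the difference between lines was called for 13 of 31, each towards higher values in KG-1a.

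**Figure D5:**
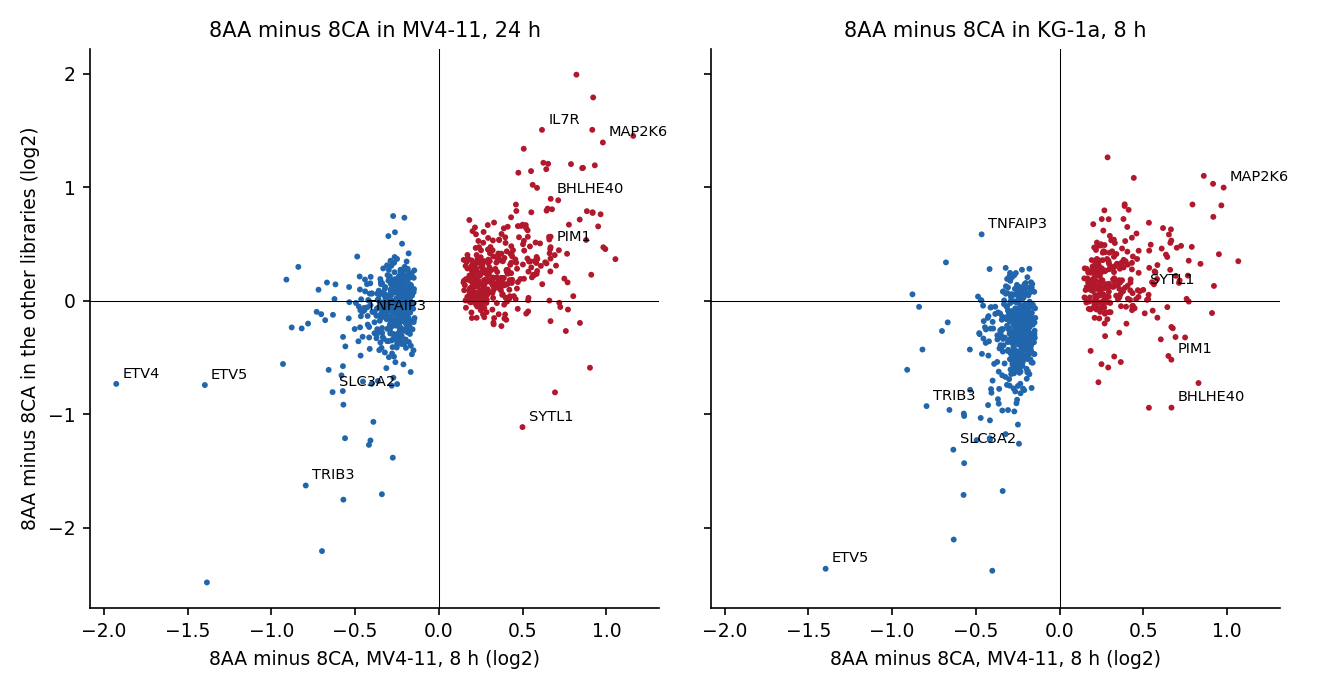
For genes called between the drugs in MV4-11 at 8 h, the log2 fold change there (horizontal) is set against that in MV4-11 at 24 h (left, 824 genes) and in KG-1a at 8 h (right, 708 genes), for genes with a mean of at least 2 CPM in the 4 drug libraries of the second contrast. Of the genes lower at 8 h, 61.2% were called lower in KG-1a and 29.5% at 24 h, where 12.2% were called higher.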

How the data were processed

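Total RNA of MV4-11 and KG-1a cells had been extracted with a QIAGEN RNeasy Micro kit and sequenced. The authors deposited a table of raw counts, whole numbers of reads per gene and library that are not normalized, and all 24 sample columns were matched to labels. The submitters' processing notes name Trimmomatic, STAR 2.6.0, HTSeq 0.11.1, edgeR and the builds hg19 and hg38. The sources used here do not give the build counted on, the annotation or the use of strand, and no gene coordinates of the table are printed. The table holds 0 mitochondrial genes, so their share could not be used as a sign of RNA quality.

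Counts were filtered with filterByExpr (minimum count 10), scaled by TMM and fitted with edgeR 4.0.16 (R 4.3.3, limma 3.58.1), using the quasi-likelihood test on the 12 MV4-11 libraries with 1 coefficient per group. P-values were adjusted by Benjamini-Hochberg over all genes tested, at a threshold of 0.05, and the fit was tested on simulated data. Levels are TMM-scaled CPM. They were not divided by length, so they compare libraries and not genes. The KG-1a contrast and its difference from MV4-11 came from a fit of all 24 libraries. DESeq2 1.42.0, other scalings, filters, fits and the removal of each library were alternatives. Depth was 18633963 to 24520078 counts per library.

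Members and lists were chosen with earlier results of these data known, so list counts support nothing by themselves, and the ERK output, FOXO and lysosome lists were added after values had been seen. Named were the 10 genes with the largest increase and decrease among called genes whose mean reached 1 log2 CPM and whose drug libraries did not overlap, MAT2A, METTL16, METTL3, METTL14, NUDT21, CPSF6, CPSF7 and BCL2, up to 4 called members of each list by size with members that define its role, and up to 5 genes for each further contrast that were called in opposite directions. Promoter sequences come from RefSeq (GRCh38.p14) and matched 10058 of the 12800 tested genes by symbol, 497 of them by an older symbol. Some genes that the rule or the marker lists would name are not reported here.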

Additional observations from a re-analysis of the deposited data

Results flagged for a closer look

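The drug difference itself differed between times and between lines, by tests of the difference in edgeR with Benjamini-Hochberg adjustment. Between 24 h and 8 h in MV4-11 it was called for 979 genes, and between KG-1a and MV4-11 at 8 h for 1169 genes. The genes below were called in opposite directions and were chosen for that by rank, so their values are a description.

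At 8 h MOV10, an RNA helicase gene, was higher with 8AA by 0.69 on the log2 scale and at 24 h it was lower at -0.81, a difference of -1.50, with 24 h levels of 3.87 and 4.23 CPM under 8CA and 2.47 and 2.13 CPM under 8AA. SYTL1, of vesicle transport, went from 0.50 at 8 h to -1.11 at 24 h, a difference of -1.61, with 18 and 19 CPM under 8CA and 8.88 and 8.19 CPM under 8AA at 24 h. AGTRAP turned from -0.31 to 0.31 (difference 0.62), PYCR3, of proline synthesis, from -0.30 to 0.57 (difference 0.87) and XRCC3, of homologous recombination, from -0.29 to 0.35 (difference 0.64).

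Between lines, GAS6-AS2 was higher with 8AA in MV4-11 and lower in KG-1a, where it lay under 1 CPM, with a difference of -2.53. SOCS1 gave a difference of -1.58 and lay in KG-1a at 17.5 and 16.9 CPM under 8CA and at 11.0 and 9.86 CPM under 8AA. BHLHE40, a transcriptional repressor gene, gave -1.63, with KG-1a levels of 102.3 and 104.2 CPM under 8CA and 56.6 and 50.8 CPM under 8AA. IL7R gave -1.77 at KG-1a levels between 0.373 and 1.24 CPM, and SLC27A3, a fatty acid transport gene, gave -1.50.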

How the results depend on the processing

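Directions stayed the same and counts did not. Each alternative used the same libraries or a part of them, and genes named by rank had drug libraries that did not overlap. A reversal was therefore unlikely from the start, and the kept directions are a description. Of 119 named genes that were called, 36 kept the call in all 14 alternatives that set no minimum fold, 83 lost it in at least 1 and 0 reversed, and 0 called genes were called the opposite way in any alternative. From 853 genes called (379 higher and 474 lower with 8AA), the count was 180 (96 and 84) when only the 4 drug libraries were fitted, 347 (173 and 174) with the 6 libraries of 8 h and 534 (224 and 310) by DESeq2, of which 528 were shared. With no filter on low counts 573 were higher, and 26 (19 and 7) passed when the log2 fold change also had to reach 1 in size. Leaving out 1 library gave 365 to 468 genes, 153 to 225 higher and 175 to 243 lower. Smaller fits have fewer degrees of freedom. The fits of 4 and 6 libraries also leave out the 24 h pairs, which varied less than the 8 h pairs. Against sampling noise, the chi-square per degree of freedom was 2.561 to 3.272 in the MV4-11 pairs of 24 h and 4.333 to 5.201 in those of 8 h. The cause of the changes in count was not tested. The share higher with 8AA was 44.4% under TMM, 59% under upper-quartile scaling, 51.9% with library size only, 51.2% with at least 10 counts in every MV4-11 library and 57.8% in the fit of 24 libraries. The difference between times called 60 genes at a log2 fold change of at least 1 and 375 to 1027 with 1 library left out, and the difference between lines 82 and 650 to 908.

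The letters A and B are given to every group, and the labels do not say what they share. Deviations of same-lettered libraries from their group means correlated at 0.424 between 8AA and 8CA, 0.317 between 8AA and untreated and 0.285 between 8CA and untreated over 10961 genes. With the letter as a replicate block 1369 genes were called, 583 higher and 786 lower, including all 853. Lower calls went from 2 to 10 of 38 proteasome subunits, from 14 to 21 ribosome biogenesis genes, from 6 to 9 MYC targets and from 5 to 8 p53 targets, and higher calls from 0 to 3 mitosis genes, while the difference between times was called for 1606 genes.

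With 2 libraries per drug, a gene's error rests on the spread shared with other groups, and for 2901 genes that were not called the 95% interval reached beyond 0.5 log2 units. Antisense and overlapping genes cannot be separated without the strand setting.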
